A study of Homo sapiens with 6 samples.

Results

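The extracellular matrix genes of human umbilical vein endothelial cells (HUVECs) were compared between cells given an oxidised microRNA and cells given its unoxidised form. The genes were chosen by name: every row whose name begins with COL and a digit, and 28 listed laminin, nidogen, fibrillin, fibulin, thrombospondin, lysyl oxidase and other matrix genes. The rule found 51 of the 18317 distinct gene names in the files, and 25 of the 28 listed genes had a row. FBLN1, SPARCL1 and TNC were not analysed here. Of the 51, 48 encode matrix proteins or enzymes that crosslink them. The other 3 matched the name pattern only: COL4A3BP encodes a ceramide transfer protein, and COL4A2-AS1 and COL18A1-AS1 are antisense RNAs.

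HUVECs are primary endothelial cells of the umbilical cord vein, here bought from a supplier. They were transfected with 8OH-G miR-483, a miR-483 that carries oxidised guanine (3 libraries), or with miR-483 (3 libraries), with a lipid reagent in both groups, and RNA was taken on day 2. A scramble control is mentioned in the labels and was not analysed here, so a difference can come from either form of the microRNA. The labels do not say whether replicates were separate cultures, and p-values then measure only the spread between these libraries, which may be technical. Values were deposited per gene and were read as FPKM, fragments scaled to transcript length and library size, which allows levels to be compared between genes. They summed to 1598259.9 to 1687283.0 per library with 8OH-G miR-483 and 1396537.5 to 1440422.1 with miR-483, with 71.3% to 76.6% in mitochondrial rows, and read depth is unknown. Replicate 1 of miR-483 stood apart in having 2663 rows listed at 0, against 287 to 625 in the other 5 libraries, and without it 9 members were called higher and 14 lower, against 10 and 15 with it. Over all tested genes, 4017 of 12473 were called higher and 2132 lower without it, against 4433 and 2606 of 12712 with it. All 10 endothelial markers examined were present, summing to 1158 to 1370.2 FPKM with 8OH-G miR-483 and 2039 to 2065 FPKM with miR-483. Of the 10, 7 (70%) were called lower with 8OH-G miR-483, against 20.5% of all tested genes. The part of these differences in the matrix values was not tested.

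Endothelial cells rest on a basement membrane, a thin sheet in which a laminin network and a type IV collagen network are joined by nidogen and perlecan. Beyond it lie fibrillar collagens, fibrillin microfibrils that carry elastin and store latent TGF-β, and adhesive glycoproteins such as fibronectin and thrombospondin. Endothelial cells make much of the basement membrane themselves and remodel it when vessels sprout, while most fibrillar collagen in tissue comes from fibroblasts and smooth muscle.

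Cells given 8OH-G miR-483 had more mRNA of the type IV collagen chain COL4A1, of fibrillin 2 (FBN2), of the collagens COL12A1, COL27A1, COL13A1 and COL8A1 and of the crosslinking enzyme LOXL2. They had less mRNA of matrix Gla protein (MGP), fibrillin 1 (FBN1), nidogen 1 (NID1), the laminin β2 chain (LAMB2), perlecan (HSPG2) and the latent TGF-β binding proteins LTBP4 and LTBP2. The collagens COL6A1, COL17A1 and COL3A1 were also lower, so collagens moved in both directions. These 3 were at low levels, as was COL8A1 among the higher ones. MGP had the largest log2 fold change in size of the 34 tested members, with 17.5 ± 5.74 FPKM with 8OH-G miR-483 against 107 ± 22.9 FPKM with miR-483 (mean ± SD over 3 libraries, as for every ± below). FBN2 and FBN1 moved in opposite directions, 2.51-fold higher and 2.49-fold lower in mean FPKM with 8OH-G miR-483.

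Genes reaching 1 FPKM in 3 or more libraries were tested, which 34 of the 51 members did, all of them with at least 1 FPKM in all 6 libraries. With limma on log2(FPKM + 1) across 12712 genes, 25 of the 34 were called at an adjusted p under 0.05, 10 higher and 15 lower, and 1 of the lower ones was COL4A3BP. Over all tested genes 55.4% were called, 34.9% higher and 20.5% lower, against 29.4% of the tested members higher and 44.1% lower. The median log2 fold change, 8OH-G miR-483 minus miR-483, was -0.18 for the tested members and 0.094 for all tested genes. Median-ratio scaling and quantile normalization moved the all-gene median by -0.097 and -0.10 and left 3454 genes higher and 3473 lower, and 3442 and 3556, against 4433 and 2606 as deposited. For the members these scalings gave 8 higher and 18 lower, and 9 and 16. In 26 of the 34 tested members (76.5%) the libraries of one group lay entirely above those of the other, as in 63.3% of all tested genes. Fold changes on the log2(FPKM + 1) scale understate the change of low genes.

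**Figure D1:**
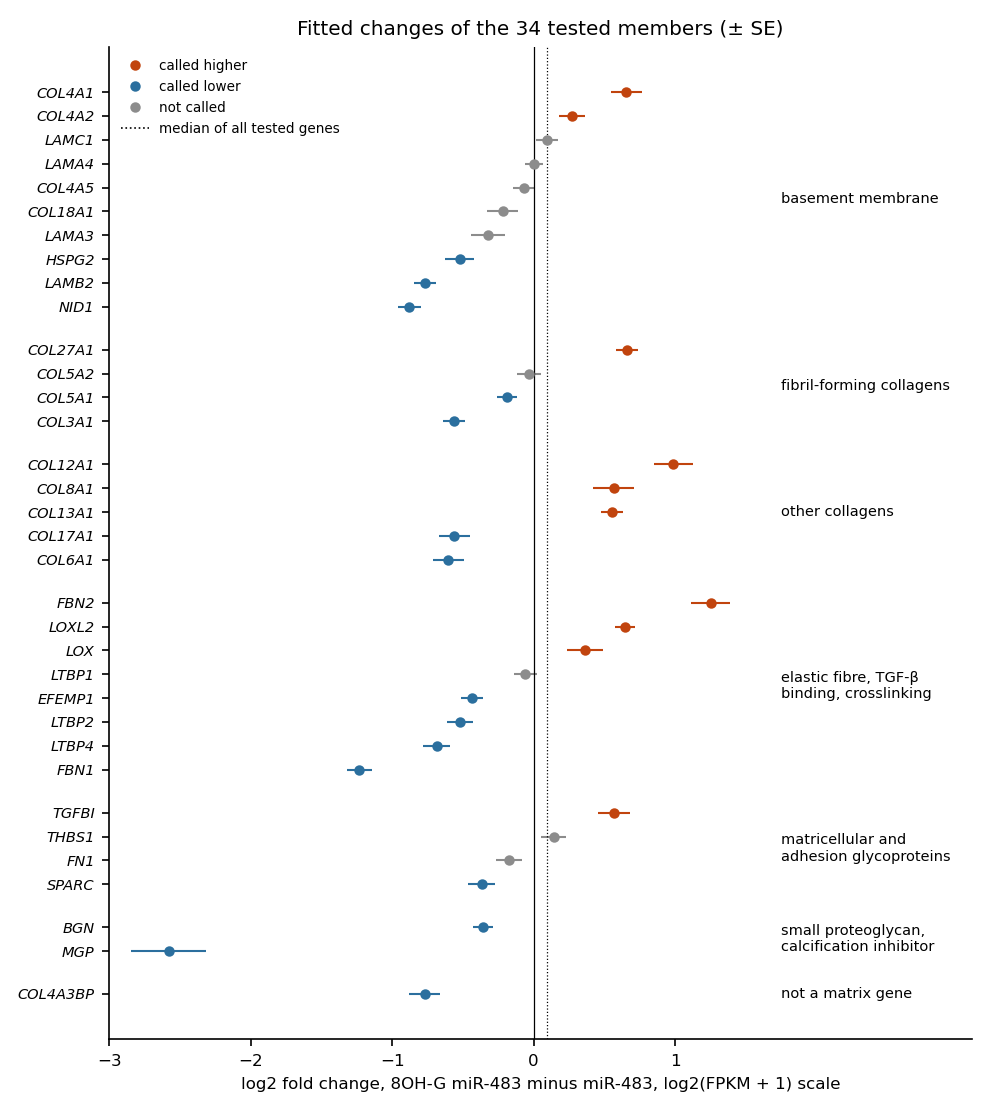
Fitted log2 fold change of each of the 34 tested members, 8OH-G miR-483 minus miR-483, with its standard error, grouped by role and coloured by call at an adjusted p under 0.05. The basement membrane genes run from 0.66 for COL4A1 to -0.88 for NID1, and MGP lies far to the left at -2.58.

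**Figure D2:**
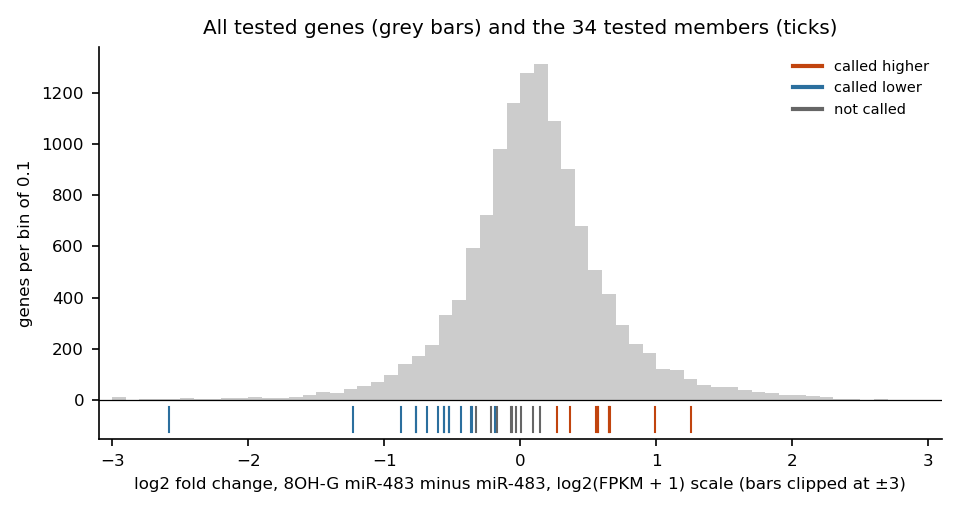
Histogram of the log2 fold changes of all 12712 tested genes (grey bars, bins of 0.1), with a tick below the axis for each of the 34 tested members. The members lie on both sides of 0, with a median of -0.18 against 0.094 for all genes.

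COL4A1 and COL4A2 encode the chains that assemble into the main type IV collagen of blood vessels. RefSeq places them next to each other on chromosome 13, on opposite strands with 126 bases between their starts, so that 1 stretch of DNA is the promoter of both. It is shown because both genes were called higher. The window is chr13:110307034-110307333 (GRCh38.p14, plus strand, the strand of COL4A2), and the capitals mark the bases between the starts.
COL4A1/COL4A2: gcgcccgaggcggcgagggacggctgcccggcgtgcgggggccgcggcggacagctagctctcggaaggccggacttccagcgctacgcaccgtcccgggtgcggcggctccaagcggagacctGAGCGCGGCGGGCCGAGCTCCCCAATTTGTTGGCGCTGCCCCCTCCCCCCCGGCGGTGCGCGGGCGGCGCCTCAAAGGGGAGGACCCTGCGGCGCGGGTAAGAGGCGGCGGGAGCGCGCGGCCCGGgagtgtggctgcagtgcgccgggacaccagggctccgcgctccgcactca
The marked bases held 1 CCAAT box (CCAAT on either strand) and 1 GC box (GGGCGG on either strand), which shared 0 bases. A CCAAT box was present in 34.6% of 35116 RefSeq promoter windows of this length and a GC box in 45.0%.

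COL4A1 had 139, 130.3 and 104 FPKM in the 8OH-G miR-483 libraries, against 83.5, 74.5 and 76.01 FPKM in the miR-483 libraries. All 3 values with 8OH-G miR-483 lay above those with miR-483, with replicate 3 the lowest of them (log2 fold change 0.66, SE 0.111, adjusted p = 0.00114, limma). COL4A2 had 164, 157 and 131 FPKM with 8OH-G miR-483, against 128, 119.8 and 124 FPKM with miR-483. The groups did not overlap here either, but replicate 3 of 8OH-G miR-483 came close to replicate 1 of miR-483, and the change was smaller (log2 fold change 0.27, SE 0.0928, adjusted p = 0.0347). COL4A2 no longer passed after median-ratio scaling (adjusted p = 0.161), after quantile normalization (0.0579), and when 8OH-G miR-483 replicate 1 (0.125) or 2 (0.0877) or miR-483 replicate 1 (0.0532), 2 (0.0903) or 3 (0.0889) was left out. Together the chains summed to 275 ± 35.6 FPKM with 8OH-G miR-483 and 202 ± 8.78 FPKM with miR-483.

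The ratio of COL4A1 to COL4A2 within a library was 0.847, 0.829 and 0.792 with 8OH-G miR-483, against 0.652, 0.622 and 0.612 with miR-483. It was higher in all 3 8OH-G miR-483 libraries than in any miR-483 library (exact two-sided permutation p = 0.1, the smallest that 3 against 3 libraries allow). A ratio within a library does not depend on the scaling between libraries. Adjusted over the 7 ratios compared, this p was 0.14. COL4A5, a type IV chain typical of kidney and other specialised basement membranes, was at 3.1 ± 0.193 FPKM with 8OH-G miR-483 and 3.3 ± 0.184 FPKM with miR-483 and was not called (adjusted p = 0.473). Its neighbour in the genome, COL4A6, stayed under 1 FPKM in every library. COL18A1, the collagen from which endostatin is cut, was at 175 ± 26.4 FPKM with 8OH-G miR-483 and 202 ± 2.43 FPKM with miR-483 (adjusted p = 0.122), and its call was gained, as lower, after median-ratio scaling (0.0276).

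Laminins are cross-shaped trimers of an α, a β and a γ chain. LAMA4, the α4 chain of endothelial laminins, had 167, 159.6 and 159 FPKM in 8OH-G miR-483 libraries, against 165, 156 and 164 FPKM in miR-483 libraries. The groups overlapped throughout, and the 95% interval of the log2 fold change was -0.15 to 0.15. LAMC1, the γ1 chain shared by most laminins, had 85.3, 74.8 and 79.7 FPKM with 8OH-G miR-483, against 77.2, 69.8 and 77.4 FPKM with miR-483, also with overlap and with an interval of -0.080 to 0.27. LAMB2, the β2 chain, differed: it had 62.9, 57.6 and 52.6 FPKM with 8OH-G miR-483, against 99.5, 94.9 and 102 FPKM with miR-483. Every 8OH-G miR-483 library was below every miR-483 library (log2 fold change -0.77, SE 0.079, adjusted p = 7.05e-05). Its ratio to LAMC1 within a library was 0.738, 0.769 and 0.66 with 8OH-G miR-483, against 1.29, 1.36 and 1.31 with miR-483 (exact two-sided permutation p = 0.1, 0.14 adjusted over 7 ratios). Per length, the β2 mRNA was thus below the γ1 mRNA with 8OH-G miR-483 and above it with miR-483. LAMB2 lay further apart between the groups than LAMC1 varied, so the p of their ratio was fixed in advance and adds no support. The ratio of LAMA4 to LAMC1 was 1.96, 2.13 and 1.99 with 8OH-G miR-483, against 2.13, 2.23 and 2.11 with miR-483 (exact permutation p = 0.2). LAMA3, the α3 chain of epithelial laminins, was low, at 2.22 ± 0.386 FPKM with 8OH-G miR-483 and 3.02 ± 0.476 FPKM with miR-483, and lay at the edge of the threshold (adjusted p = 0.0507). It was called lower after median-ratio scaling (0.0228), after quantile normalization (0.0129) and without 8OH-G miR-483 replicate 3 (0.0455) or miR-483 replicate 2 (0.0178).

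NID1 encodes nidogen 1, the linker between the laminin and type IV collagen networks. It had 41.2, 38.5 and 36.8 FPKM with 8OH-G miR-483, against 74.5, 65.4 and 77.3 FPKM with miR-483. The highest 8OH-G miR-483 value was far below the lowest miR-483 value (log2 fold change -0.88, SE 0.0816, adjusted p = 3.91e-05), a 1.86-fold lower mean. Relative to LAMC1, NID1 stood at 0.483, 0.515 and 0.462 with 8OH-G miR-483, against 0.965, 0.937 and 0.999 with miR-483 (exact permutation p = 0.1, 0.14 adjusted over 7 ratios). NID1, too, lay further apart between the groups than LAMC1 varied, so this p was fixed in advance and adds no support. HSPG2 encodes perlecan, the heparan sulfate proteoglycan of basement membranes, and was among the most abundant members. It had 766, 693 and 661 FPKM in 8OH-G miR-483 cells, against 1125, 909.5 and 1019 FPKM in miR-483 cells, without overlap (log2 fold change -0.52, SE 0.10, adjusted p = 0.00231). In sum, the 10 tested basement membrane genes gave 2 higher, 3 lower and 5 not called, a called share of 50%, against 55.4% of all tested genes.

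**Figure D3:**
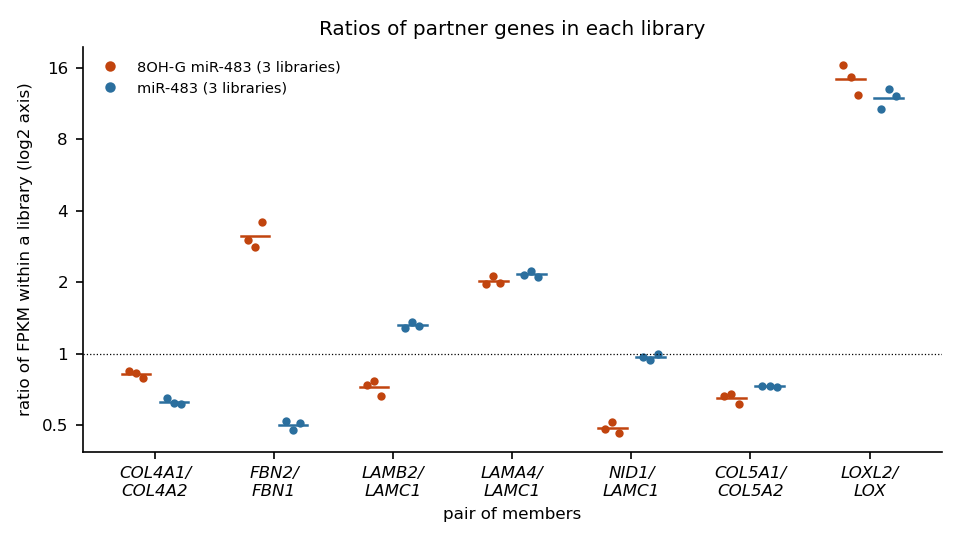
Ratio of FPKM of the members named on the x axis within each library (points, log2 axis) with the mean of the 3 libraries (bars), 8OH-G miR-483 left of miR-483. FBN2 to FBN1 lies between 2.82 and 3.59 with 8OH-G miR-483 and between 0.476 and 0.52 with miR-483, the widest gap of the 7 ratios.

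Fibrillins polymerise into the microfibrils on which elastin is laid down, and fibrillin 2 is known as the form of developing tissue. FBN2 had 31.7, 24.8 and 35.4 FPKM in the 8OH-G miR-483 libraries, against 13.4, 10.4 and 12.8 FPKM in the miR-483 libraries. FBN1 had 10.5, 8.79 and 9.86 FPKM with 8OH-G miR-483, against 25.8, 21.8 and 25.02 FPKM with miR-483. Neither gene showed overlap between the groups, and the changes were of like size and opposite sign (FBN2 log2 fold change 1.25, SE 0.137, adjusted p = 9.77e-05; FBN1 log2 fold change -1.23, SE 0.0899, adjusted p = 1.11e-05). The ratio of FBN2 to FBN1 was 3.0, 2.82 and 3.59 with 8OH-G miR-483, against 0.52, 0.476 and 0.512 with miR-483 (exact two-sided permutation p = 0.1, 0.14 adjusted over 7 ratios). FBN2 was therefore the more abundant fibrillin mRNA, per length, in each 8OH-G miR-483 library, and FBN1 in each miR-483 library. With both genes apart between the groups in opposite directions, the p of their ratio was fixed in advance and adds no support.

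The promoter windows of the 2 fibrillin genes are shown because the genes moved apart, with CCAAT and GC boxes on either strand in capitals. FBN2 lies at chr5:128538196-128538495 and FBN1 at chr15:48644921-48645220 (GRCh38.p14, minus strand for both).
FBN2: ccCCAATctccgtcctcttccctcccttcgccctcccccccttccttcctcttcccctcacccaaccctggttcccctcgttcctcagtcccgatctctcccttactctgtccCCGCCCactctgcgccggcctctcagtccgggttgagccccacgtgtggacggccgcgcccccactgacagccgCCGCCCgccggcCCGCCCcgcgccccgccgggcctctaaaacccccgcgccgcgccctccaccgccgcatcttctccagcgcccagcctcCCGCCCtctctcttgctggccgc
FBN1: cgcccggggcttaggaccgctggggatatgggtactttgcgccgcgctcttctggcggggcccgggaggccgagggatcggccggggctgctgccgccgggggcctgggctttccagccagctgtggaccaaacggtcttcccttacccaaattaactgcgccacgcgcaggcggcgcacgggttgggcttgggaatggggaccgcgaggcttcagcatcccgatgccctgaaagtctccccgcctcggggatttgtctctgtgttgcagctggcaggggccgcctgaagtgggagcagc
The FBN2 window held 1 CCAAT box and 4 GC boxes, and the FBN1 window held neither. FBN2 also held 1 CACGTG, not marked above and present in 7.26% of all windows, and FBN1 held 0. Neither window held TATAAA, which was present in 11.5% of all windows. Their GC content was 72.7% and 68.3%, against a median of 58.7% over all windows. Among the 38 of 51 members with a window in the RefSeq table, 34.2% had a CCAAT box, 71.1% a GC box, 10.5% TATAAA and 2.63% CACGTG.

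The latent TGF-β binding proteins anchor growth factor complexes to microfibrils. LTBP4 had 20.4, 20.6 and 16.5 FPKM with 8OH-G miR-483, against 33.6, 31.2 and 29.2 FPKM with miR-483. LTBP2, which binds fibrillin but not latent TGF-β, had 65.3, 61.02 and 65.02 FPKM with 8OH-G miR-483, against 94.1, 80.8 and 102 FPKM with miR-483. Each was lower in every 8OH-G miR-483 library (log2 fold changes -0.69 and -0.52, adjusted p = 0.000421 and 0.00142). LTBP1 was not called, at 37.1 ± 2.87 FPKM with 8OH-G miR-483 and 38.7 ± 2.49 FPKM with miR-483, with a 95% interval of -0.24 to 0.13 for its log2 fold change. EFEMP1 encodes fibulin 3 and was the most abundant member, at 1496 ± 82.7 FPKM with 8OH-G miR-483 and 2024 ± 28.1 FPKM with miR-483 (log2 fold change -0.44, SE 0.0762, adjusted p = 0.00136).

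LOX and LOXL2 are secreted amine oxidases that crosslink collagen, and LOXL2 also acts on type IV collagen. LOXL2 had 230.4, 216 and 239 FPKM in 8OH-G miR-483 libraries, against 146, 140.1 and 150.2 FPKM in miR-483 libraries. The groups were well apart (log2 fold change 0.65, SE 0.0713, adjusted p = 9.98e-05), with a 1.57-fold higher mean. LOX was less abundant than LOXL2, at 16.1 ± 2.92 FPKM with 8OH-G miR-483 and 12.3 ± 1.46 FPKM with miR-483, and was called higher as deposited (adjusted p = 0.0394). LOX no longer passed without a filter (0.0571), after median-ratio scaling (0.123), after quantile normalization (0.148) and without 8OH-G miR-483 replicate 3 (0.1) or miR-483 replicate 2 (0.121) or 3 (0.0817). The ratio of LOXL2 to LOX overlapped between the groups (exact permutation p = 0.2).

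Of the 9 tested collagens outside the basement membrane, 4 were higher (44.4%) and 4 lower (44.4%), against 34.9% and 20.5% of all tested genes. COL12A1, a collagen that decorates the surface of fibrils, had 33.3, 29.2 and 42.6 FPKM with 8OH-G miR-483, against 18.3, 14.9 and 17.9 FPKM with miR-483 (log2 fold change 0.99, SE 0.136, adjusted p = 0.000366). COL13A1 is a transmembrane collagen of adhesion sites and had 73.2, 75.03 and 86.5 FPKM with 8OH-G miR-483, against 55.03, 52.4 and 50.97 FPKM with miR-483. COL27A1, a fibrillar collagen known from cartilage, had 20.7, 19.3 and 19.1 FPKM with 8OH-G miR-483, against 12.4, 10.97 and 13.05 FPKM with miR-483. For all of these the 8OH-G miR-483 values lay above the miR-483 values in every library. COL8A1, a short-chain collagen of the subendothelium, had 7.48, 7.04 and 10.2 FPKM in 8OH-G miR-483 cells, against 5.26, 4.31 and 6.05 FPKM in miR-483 cells, again without overlap. The log2 fold changes of COL13A1, COL27A1 and COL8A1 were 0.56, 0.66 and 0.57 (adjusted p = 0.000454, 0.00016 and 0.00979).

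COL6A1, a chain of the beaded microfibrils of type VI collagen, had 6.04, 7.14 and 5.05 FPKM with 8OH-G miR-483, against 9.89, 10.1 and 9.03 FPKM with miR-483 (log2 fold change -0.60, SE 0.109, adjusted p = 0.00167). The gene of its partner chain, COL6A2, lies beside it on chromosome 21 and stayed under 1 FPKM. COL17A1, the transmembrane collagen of epithelial hemidesmosomes, had 1.99, 1.63 and 2.53 FPKM with 8OH-G miR-483, against 3.39, 3.51 and 3.49 FPKM with miR-483 (log2 fold change -0.56, SE 0.111, adjusted p = 0.0027). COL3A1, a fibrillar collagen of the vessel wall, had 1.19, 1.35 and 1.22 FPKM with 8OH-G miR-483, against 2.35, 2.25 and 2.38 FPKM with miR-483 (log2 fold change -0.56, SE 0.076, adjusted p = 0.000329). These 3 genes were low but did not overlap between the groups. COL3A1 lies beside COL5A2 on chromosome 2, and COL5A2, a chain of the type V collagen that starts fibrils, was at 82.3 ± 7.33 FPKM with 8OH-G miR-483 and 84.03 ± 5.34 FPKM with miR-483 (95% interval of the log2 fold change -0.22 to 0.16). The other type V chain, COL5A1, was at 53.6 ± 1.92 FPKM with 8OH-G miR-483 and 61.2 ± 3.74 FPKM with miR-483. Its adjusted p of 0.04997 was just under the threshold, and the call was lost at other pseudocounts (0.0501 at each), without a filter (0.0628), without trend and robust shrinkage (0.0614), and without 8OH-G miR-483 replicate 1 (0.124) or 2 (0.121) or miR-483 replicate 1 (0.134) or 3 (0.169). Collagen mRNA summed to 741 ± 38.3 FPKM over 23 genes with 8OH-G miR-483 and 659 ± 18.8 FPKM with miR-483, but its parts differed. COL4A1 and COL4A2 held 275 ± 35.6 FPKM with 8OH-G miR-483 and 202 ± 8.78 FPKM with miR-483. The 12 other collagens held 131 ± 14.6 and 90.7 ± 3.19 FPKM in the same order, and the 6 fibril-forming collagens 157 ± 8.82 and 161 ± 10.2 FPKM. Nearly all the rest of the total was COL18A1, the collagen gene with the highest mean in both groups. It had a lower mean with 8OH-G miR-483, 175 ± 26.4 FPKM against 202 ± 2.43 FPKM with miR-483, and was not called.

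**Figure D4:**
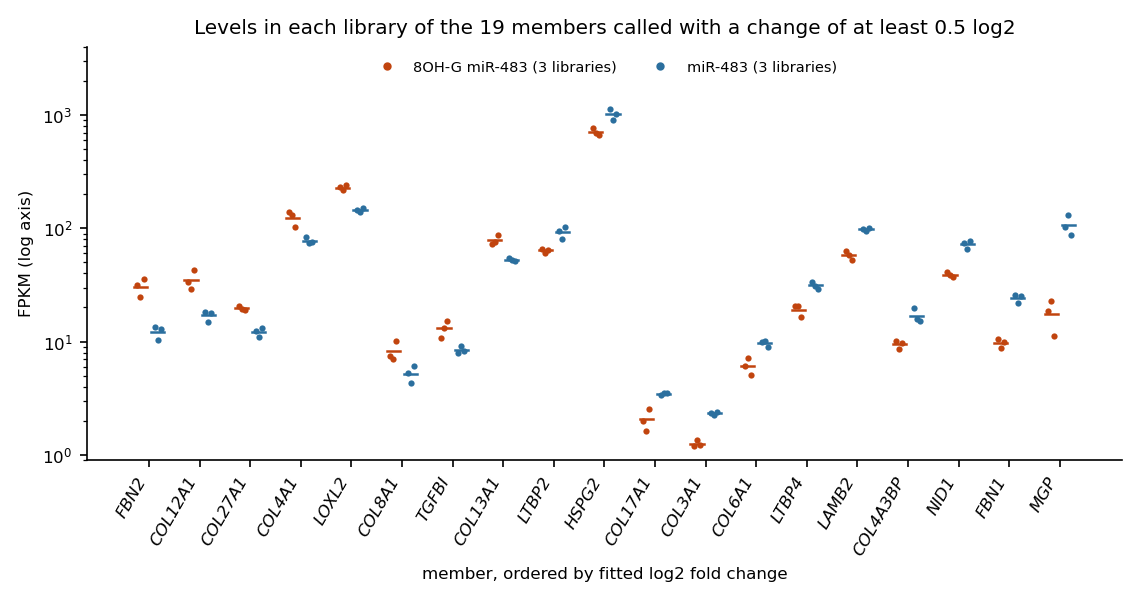
FPKM in each library (points, log axis) and the mean of the 3 libraries (bars) for the 19 members called with a log2 fold change of at least 0.5 in size, 8OH-G miR-483 left of miR-483. The groups do not overlap for any of the 19, which largely follows from choosing them by call and size. Among all tested genes, whatever their call, 63.3% do not overlap. The 19 run from FBN2 with the largest rise to MGP with the largest fall, and levels from 1.19 FPKM for COL3A1 to 1125 FPKM for HSPG2.

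MGP encodes matrix Gla protein, a vitamin K-dependent inhibitor of vascular calcification that also binds BMP ligands. It had 18.5, 22.6 and 11.3 FPKM in the 8OH-G miR-483 libraries, against 102, 132 and 86.9 FPKM in the miR-483 libraries. The spread within each group was wide, yet the highest 8OH-G miR-483 value was far under the lowest miR-483 value. The mean was 6.13-fold lower (log2 fold change -2.58, SE 0.266, adjusted p = 0.000284). BGN, the small leucine-rich proteoglycan biglycan, was at 247 ± 11.4 FPKM with 8OH-G miR-483 and 317 ± 8.75 FPKM with miR-483 (log2 fold change -0.36, SE 0.0705, adjusted p = 0.00263).

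Among the adhesive and matricellular glycoproteins, TGFBI, a TGF-β-induced protein that binds collagen and integrins, had 10.8, 13.3 and 15.2 FPKM with 8OH-G miR-483, against 7.98, 9.1 and 8.19 FPKM with miR-483 (log2 fold change 0.57, SE 0.115, adjusted p = 0.00304). SPARC, which binds collagen and loosens cell adhesion, was lower, at 292 ± 34.4 FPKM with 8OH-G miR-483 and 375 ± 10.7 FPKM with miR-483 (adjusted p = 0.0113). FN1, fibronectin, had 447, 399.7 and 468 FPKM in 8OH-G miR-483 cells, against 533, 463 and 487 FPKM in miR-483 cells. The groups overlapped and FN1 was not called (adjusted p = 0.132, 95% interval -0.38 to 0.032), but it passed as lower after median-ratio scaling (0.0271). THBS1, thrombospondin 1, an inhibitor of angiogenesis that can activate latent TGF-β, was at 1128 ± 68.5 FPKM with 8OH-G miR-483 and 1023 ± 71.8 FPKM with miR-483 and was not called (adjusted p = 0.196, 95% interval -0.056 to 0.34). It passed as higher after quantile normalization (0.0479). EFEMP1, THBS1 and HSPG2 made up 56.7% to 60.4% of the summed FPKM of the 48 matrix genes in a library. That sum was 5828 ± 228 FPKM with 8OH-G miR-483 and 6794 ± 269 FPKM with miR-483.

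COL4A3BP, the ceramide transfer protein gene, had 10.1, 8.67 and 9.66 FPKM with 8OH-G miR-483, against 19.98, 15.8 and 15.1 FPKM with miR-483 (log2 fold change -0.77, SE 0.109, adjusted p = 0.000437). It is counted above only because of its name.

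The 17 members that did not pass the filter lay between 0 and 0.982 FPKM in all 6 libraries and were not tested. They were COL1A2, COL4A6, COL6A2, COL7A1, COL8A2, COL9A2, COL9A3, COL11A2, COL16A1, COL21A1, FBLN5, EMILIN1, LOXL1, MATN2, DCN and both antisense RNAs. Of the 15 matrix genes among them, 11 had a lower mean with 8OH-G miR-483 and 4 a higher one. The same split over all names under the filter was not computed, so none can be set beside it. The groups did not overlap for 9 of the 17 (52.9%), against 32.1% of all 5605 names under the filter. COL1A2, a chain of type I collagen, was at 0.17, 0.173 and 0.129 FPKM with 8OH-G miR-483 and at 0.467, 0.396 and 0.472 FPKM with miR-483. COL9A3, a chain of the cartilage collagen IX, was at 0.117, 0.171 and 0.0558 FPKM with 8OH-G miR-483, against 0.331, 0.304 and 0.483 FPKM with miR-483. FBLN5, an elastic fibre protein, was the only 1 of the 9 with higher values in 8OH-G miR-483 cells, at 0.453, 0.55 and 0.634 FPKM with 8OH-G miR-483, against 0.21, 0.343 and 0.212 FPKM in miR-483 cells. These 3 were picked after their values were seen.

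Genes that modify, fold and export collagen gave 3 higher and 7 lower calls among 25 tested (40% called, against 55.4% of all tested genes), and their median log2 fold change was -0.076, against 0.094 for all tested genes. The 3 called genes with the smallest p were all lower. The collagen prolyl 4-hydroxylase subunit genes P4HA2 (12.5 ± 0.768 FPKM with 8OH-G miR-483 against 25.4 ± 1.84 FPKM with miR-483) and P4HA1 (22.8 ± 2.34 FPKM with 8OH-G miR-483 against 32.9 ± 0.727 FPKM with miR-483) were lower with 8OH-G miR-483, as was BMP1, which trims procollagen (18.3 ± 1.61 FPKM with 8OH-G miR-483 against 31.5 ± 0.636 FPKM with miR-483). SERPINH1, the collagen chaperone, was at 113 ± 12.6 FPKM with 8OH-G miR-483 and 101 ± 9.16 FPKM with miR-483 and was not called (adjusted p = 0.214), and it was picked after its values were seen. Other basement membrane genes, 11 tested, gave 3 higher and 4 lower calls (63.6% called, against 55.4% of all tested genes), with a median of -0.043. NTN4, a laminin-related netrin, was lower, at 63.3 ± 4.29 FPKM with 8OH-G miR-483 and 179.8 ± 12.3 FPKM with miR-483, and so was TINAGL1, a matricellular protein of basement membranes, at 193 ± 7.74 FPKM with 8OH-G miR-483 and 270.0 ± 10.1 FPKM with miR-483. LAMB1, the β1 chain that can replace β2, was at 206 ± 3.32 FPKM with 8OH-G miR-483 and 212 ± 5.08 FPKM with miR-483 (adjusted p = 0.599) and was likewise picked after its values were seen.

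Other elastic fibre and matricellular genes, 12 tested, gave 3 higher and 6 lower calls (25% and 50%, against 34.9% and 20.5% of all tested genes), with a median log2 fold change of -0.20. MFAP1, which was not called, is counted among the 12 only because of its name. LTBP3 (64.5 ± 6.6 FPKM with 8OH-G miR-483 against 116 ± 2.04 FPKM with miR-483) was lower, along with LTBP4 and LTBP2. MMRN1, multimerin 1 of the EMILIN family, was lower, at 202 ± 15.6 FPKM with 8OH-G miR-483 and 502 ± 43.8 FPKM with miR-483, and VCAN, the large proteoglycan versican, was at 0.86 ± 0.265 FPKM with 8OH-G miR-483 and 3.16 ± 0.386 FPKM with miR-483. VCAN would not have passed the filter without its miR-483 libraries, where it is high. Its call, counted among the 6 lower ones, therefore adds no support. The 8 genes called in these lists and named here had adjusted p between 2.76e-06 (NTN4) and 0.000753 (P4HA1).

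Fibroblasts and mural cells make much of the same matrix, so their markers were read in the same libraries. Of 16 markers outside the members, 7 had a row and 4 were tested. By limma 0 of the 4 were called, against 55.4% of all tested genes, and 4 genes are too few to read this as unchanged levels. Only 1 of the 4 had an unadjusted p under 0.05, RGS5 (unadjusted p = 0.0358, adjusted p = 0.0622). The 7 markers summed to 827.1 to 1022 FPKM with 8OH-G miR-483 and 620.7 to 843 FPKM with miR-483, nearly all of it RGS5. PDGFRA, LUM and MYH11 stayed under 1 FPKM in every library, ACTA2 was at 1.82 ± 0.111 FPKM with 8OH-G miR-483 and 1.85 ± 0.0417 FPKM with miR-483, and 0 of the 7 were listed at 0 throughout. LUM, a proteoglycan of fibroblasts, was at 0.472, 0.534 and 0.392 FPKM with 8OH-G miR-483, against 0.125, 0.0847 and 0 FPKM with miR-483, higher without overlap but not tested. Of 6 leukocyte markers, LYZ and CD68 had a row and both were called lower, against 20.5% of all tested genes. They had sums of 6.49 to 7.79 FPKM with 8OH-G miR-483 and 14.2 to 17.7 FPKM with miR-483. Most of these sums was CD68, at 7.15 ± 0.76 FPKM with 8OH-G miR-483 and 11.9 ± 1.85 FPKM with miR-483 (adjusted p = 0.00158). LYZ, lysozyme, differed more, at 0.147, 0 and 0.179 FPKM with 8OH-G miR-483, against 3.66, 4.32 and 4.1 FPKM with miR-483. LYZ passed the filter only through the miR-483 libraries, where it is high, so its call adds no support to these values. KRT19 was the only 1 of 6 epithelial markers with a row, at 6.08 ± 1.18 FPKM with 8OH-G miR-483 and 4.63 ± 0.56 FPKM with miR-483 (adjusted p = 0.064), and the erythroid markers listed were not analysed here. The part of other cell types in the matrix values was not tested. In such bulk libraries, fewer cells that make a transcript and less of it per cell cannot be told apart.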

How the data were processed

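The 6 HUVEC libraries were read from their deposited RNA-seq tables. The deposited files hold 1 column of decimal values for 20792 rows each. The unit is named neither by the labels nor by the headers. It was inferred to be FPKM as computed by the authors, since column totals exceed what TPM or CPM can reach. Cutadapt, STAR, HTSeq, DESeq2 and hg19 are named, without version or order, per the submitters' processing notes. Low values showed no clear whole-read steps, so read depth is unknown and no counting interval is given. How strand and multi-mapped reads were handled was not recorded in the labels or headers, and values of genes with antisense partners or close relatives are therefore uncertain.

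A repeated gene name was given its highest value per library, which touched COL11A2 alone among the members, and 24 rows with names turned into dates were dropped. Genes reaching 1 FPKM in 3 or more libraries were fitted with limma 3.58.1 in R 4.3.3 on log2(FPKM + 1), with trend and robust shrinkage, group as the only term, Benjamini-Hochberg adjustment over 12712 genes and a threshold of 0.05. The script was tested on simulated data. Ratios within a library were compared by exact two-sided permutation tests over the 6 libraries. Promoter windows (250 bases before to 50 after a start) came from RefSeq on GRCh38.p14, another build than that of the files, so their coordinates were not joined to the files. Members, role groups and lists were chosen with earlier results of these data known. The members given in every library are those called with a log2 fold change of at least 0.5 in size, COL4A1, COL4A2, LAMA4, LAMC1, LAMB2 and FN1, and 3 unpassed genes picked after their values were seen. Outside the members, LUM and LYZ are given in every library and were likewise picked after their values were seen. From each list the 3 called genes with the smallest p are named, of which 1 is not reported here. Seed matches of miR-483 were not analysed here. Alternatives covered the pseudocount, filters, scaling, repeated names, a replicate block, a fold threshold, the shrinkage and each library left out. Figures were drawn in matplotlib 3.10.9 with Python 3.11.15.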

Additional observations from a re-analysis of the deposited data

How the results depend on the processing

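The counts of 10 higher and 15 lower members stayed within 8 to 10 and 13 to 19 under every alternative other than a fold threshold of 1.2 in the test, with 19 lower when no filter was used and 51 members were tested. With that threshold 6 members were higher and 10 lower, and 3436 of all genes were called against 7039. The median log2 fold change of the tested members was -0.12 without a filter, -0.12 with a filter of 5 FPKM and -0.29 after median-ratio scaling, against -0.18. Leaving out 1 library gave 8 to 9 higher and 14 to 16 lower members, and 5928 to 6472 of all genes called against 7039. No called member changed sign under any of these alternatives. Under the fold threshold the calls of BGN, COL8A1, EFEMP1, HSPG2, SPARC and TGFBI were lost besides those of COL4A2, COL5A1 and LOX.

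The labels give the groups the same replicate numbers, but same-numbered libraries deviated together in 1 of 3 pairs only (correlations of 0.017, 0.33 and 0.012 over all tested genes), so the numbers were not taken as pairs. With the replicate block, 7594 genes, 10 higher and 17 lower members were called, with FN1 (adjusted p = 0.0474) and LAMA3 (0.00865) added as lower. Not every library correlated best with its own number. Read depth is unknown, and with 3 libraries per group an exact test cannot go below 0.1.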
